A study of Homo sapiens with 12 samples.

Results

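Heat shock proteins and their cochaperones were followed through DU145 cells, a human prostate cancer line, that overexpressed the transcription factor ATOH8 or were treated with RSL3. The genes were taken by symbol: protein-coding genes of the HSPA, HSPB, HSP90, HSPH, HSPD, HSPE, DNAJA, DNAJB and numbered BAG groups. In RefSeq 50 genes meet that rule. Of these, 9 were listed in either deposited table, 7 of them in the ATOH8 table of 1424 genes and 3 in the RSL3 table of 1810 genes, with HSPA2 in both. The other 41 were in neither table, and their levels were not analysed here.

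Heat shock proteins of the HSP70 family (HSPA genes) bind short exposed stretches of unfolded proteins and release them in a cycle driven by ATP. J-domain proteins (DNAJ genes) bring clients and speed up ATP hydrolysis, BAG proteins help to exchange the nucleotide, and HSP90 takes over clients such as kinases and steroid receptors at a later step of folding. Many of these genes are transcribed through HSF1, which binds inverted repeats of a short unit, the heat shock element, and tumour cells are known to keep some of them at a high level without heat.

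The study sequenced RNA of 12 libraries in 4 groups of 3. DU145 cells labelled as genotype OE ATOH8 (oeATOH8) were set against cells labelled OE CTRL (oeCTRL), and unmodified DU145 cells treated with RSL3, a GPX4 inhibitor that triggers ferroptosis, for 24 h were set against unmodified cells given its solvent DMSO. The labels give neither the RSL3 dose nor the vector, its promoter, or whether the overexpressing cells were a clone or a pool. Whether replicates came from different cultures is not stated, and the p-values cover no more than the spread between these libraries, which may be technical. Of 8 epithelial and mesenchymal markers (the latter CDH2 and VIM), KRT8 and CDH1 were listed in the ATOH8 table, with reads in all 6 libraries. None of 6 luminal prostate markers was listed in either table.

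The overexpression showed in the libraries: ATOH8 had 76508, 72569 and 76043 reads in oeATOH8 cells, against 13, 10 and 4 reads in oeCTRL cells. In the RSL3 table, ATOH8 had normalised counts of 357.6, 428.7 and 470.2 with RSL3, against 26.4, 35.1 and 40.1 with DMSO. Reads over listed genes numbered 2083678 to 2226518 in oeATOH8 libraries and 1508188 to 1605910 in oeCTRL libraries, and 3046193 to 3096832 with RSL3 and 2523743 to 2891822 with DMSO. They count the listed genes and are not the depth of the whole libraries. Both tables hold genes that had already been selected for a difference: on the log2 scale, the ratios of oeATOH8 to oeCTRL means left an empty range from -0.97 to 1.03. For RSL3 against DMSO the empty range was narrower, with fitted log2 fold changes leaving out -0.33 to 0.34 among genes past the filter on low values. A listed gene therefore had to differ, and the numbers listed in each direction are read here only against all listed genes.

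The promoters of the 7 genes of the ATOH8 table are introduced first, because many genes of this family are known to carry heat shock elements there. Windows of 250 bases before to 50 after the start of a gene came from RefSeq (GRCh38.p14). They were searched on both strands for GAANNTTC and TTCNNGAA, a pair of inverted heat shock units in either order. Printed here are 5 of them, 5′ to 3′ on the gene's strand, from 250 bases before the start to base 30, with capitals marking the matching pairs; overlapping matches merge into 1 run. HSPA8 and HSP90AA1 are shown as the most abundant members, DNAJA1 as a J-domain partner, HSPA1A as a heat-inducible HSP70, and HSPA2 as the member whose window holds no such pair.
HSPA8, chr11:123062107-123062386, minus strand: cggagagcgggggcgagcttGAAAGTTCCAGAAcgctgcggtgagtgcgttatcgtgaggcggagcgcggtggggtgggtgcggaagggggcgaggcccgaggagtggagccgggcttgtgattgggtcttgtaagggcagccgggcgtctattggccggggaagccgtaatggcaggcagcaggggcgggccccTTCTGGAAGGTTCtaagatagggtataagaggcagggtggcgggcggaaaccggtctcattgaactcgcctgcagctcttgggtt
HSP90AA1 (downstream start), chr14:102087015-102087294, minus strand: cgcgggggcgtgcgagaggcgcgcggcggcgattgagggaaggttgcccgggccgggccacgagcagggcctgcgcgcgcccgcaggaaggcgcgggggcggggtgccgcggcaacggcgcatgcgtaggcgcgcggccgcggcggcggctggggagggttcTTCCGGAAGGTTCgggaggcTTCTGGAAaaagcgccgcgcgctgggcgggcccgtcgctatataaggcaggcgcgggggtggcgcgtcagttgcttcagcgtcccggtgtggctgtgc
DNAJA1, chr9:33025023-33025302, plus strand: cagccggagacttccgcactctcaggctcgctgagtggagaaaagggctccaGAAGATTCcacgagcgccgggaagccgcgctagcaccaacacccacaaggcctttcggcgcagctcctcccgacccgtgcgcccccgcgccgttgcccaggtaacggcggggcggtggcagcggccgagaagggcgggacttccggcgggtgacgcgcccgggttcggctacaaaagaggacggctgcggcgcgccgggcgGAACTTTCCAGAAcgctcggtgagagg
HSPA1A, chr6:31815293-31815572, plus strand: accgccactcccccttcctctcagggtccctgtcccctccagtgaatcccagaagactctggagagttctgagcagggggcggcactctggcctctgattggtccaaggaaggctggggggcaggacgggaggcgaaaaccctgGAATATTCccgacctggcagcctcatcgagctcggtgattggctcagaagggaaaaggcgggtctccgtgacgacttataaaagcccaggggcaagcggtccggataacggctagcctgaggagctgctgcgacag
HSPA2, chr14:64540491-64540770, plus strand: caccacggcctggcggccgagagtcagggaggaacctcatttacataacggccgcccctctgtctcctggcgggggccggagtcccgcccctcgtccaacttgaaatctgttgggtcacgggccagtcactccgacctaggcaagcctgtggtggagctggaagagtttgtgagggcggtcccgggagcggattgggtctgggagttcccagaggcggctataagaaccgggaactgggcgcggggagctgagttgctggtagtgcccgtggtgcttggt

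Of the 7 genes listed in the ATOH8 table, 6 (85.7%) held the pair of heat shock units, against 4417 of all 27305 genes with a window (16.2%), 18.4% of the genes listed as lower with oeATOH8 and 12.2% of those listed as higher. Of the family genes in neither table, 37 had a window and 15 of these (40.5%) held the pair. None of the 3 genes of the RSL3 table, HSPA2, DNAJA3 and BAG1, held it. The stricter arrangement of 3 adjoining units, each inverted against its neighbour, was found in HSPA8, HSP90AA1 and DNAJA1, which is 3 of 7 genes, against 0.597% of all genes and 4 of the 37 family genes in neither table. These 3-unit matches contain the overlapping pairs printed above.

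Counted from the start as base 1, with the base before it as -1, the 3 units began at -231 and again at -56 in HSPA8, at -89 in HSP90AA1 and at 3 in DNAJA1. The pair began at -106 in HSPA1A and at -105 in HSPA1B, whose windows are near copies of each other. HSP90AA1 and DNAJB4 each have 2 windows, and in both genes only the downstream start's window held the pair, at -98 in DNAJB4. The E-box letters CANNTG, which transcription factors of the class of ATOH8 are known to bind, were in the windows of 2 of the 7 genes, HSP90AA1 and DNAJB4, against 73.1% of all genes. The TATAA box letters, searched as TATAA and its reverse complement TTATA, were in 6 of the 7, against 24.2%, and CCAAT or its reverse complement ATTGG was in 5 of the 7, against 39.7%. These are matches of letters in short windows, with no binding measured here.

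**Figure D1:**
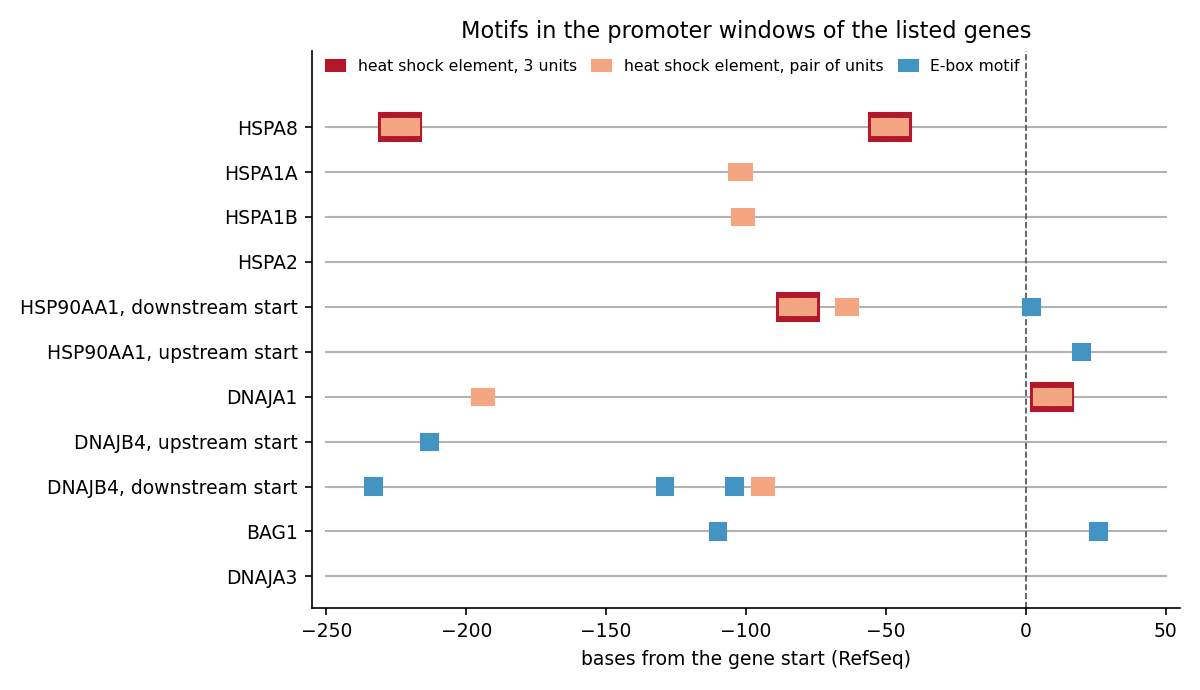
Motif matches in the RefSeq promoter windows of the 9 listed genes, by distance in bases from the gene start (dashed line); each grey line is 1 window. The 3-unit heat shock element is seen in HSPA8, HSP90AA1 and DNAJA1 alone, and the HSPA2, BAG1 and DNAJA3 windows hold no heat shock pair.

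In oeATOH8 cells all 7 listed heat shock genes fell: 4 HSP70 genes by 3.70-fold to 4.73-fold, and HSP90AA1 with the J-domain genes DNAJA1 and DNAJB4 by 2.31-fold to 2.40-fold. Each passed edgeR's quasi-likelihood test with Benjamini-Hochberg adjustment over every annotated gene, a bound because unlisted genes were counted as tests without a signal. The same test called 82.0% of the listed genes. It called 660 as lower (46.3% of all listed genes), where 835 were listed as lower, so a call alone does not set these 7 apart. No value of the groups overlapped for any of the 7. That held in the lower direction for 830 genes, which is 58.3% of all listed genes and nearly all of the 835 listed as lower. It therefore does not set the 7 apart either. The members' median log2 fold change was -1.89, against -1.10 over all listed genes and -1.41 over those listed as lower. In bulk RNA, fewer cells with a transcript and less of it per cell cannot be told apart.

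HSPA8, the constitutive HSP70 of the cytosol and the ATPase that uncoats clathrin vesicles, is on chromosome 11 (123057489-123062462, minus strand, GRCh38.p14). Its scaled read counts, which are reads divided by a factor per library, were 9974, 9988 and 9934 in oeATOH8 cells, against 44551, 47112 and 49744 in oeCTRL cells. All 3 oeATOH8 libraries lay within a narrow band far under the lowest oeCTRL library. The coefficient of variation in oeATOH8 cells was 0.281%, against 2.70% to 7.83% for the other members. The means were 9965 ± 28.0 and 47136 ± 2597 (SD, n = 3 each), and the log2 fold change was -2.24 (SE 0.0418, edgeR adjusted p = 6.36e-10). Its p-value was second only to that of ATOH8 itself among the 1424 listed genes, while its decrease ranked 95 by size among the 835 genes listed as lower. HSPA8 also ranked 2 by reads among the listed genes in oeCTRL cells, and both depth and a narrow spread lower a p-value.

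HSPA1A and HSPA1B, the heat-inducible HSP70 genes that lie near each other on chromosome 6 (31815543-31817942 and 31827738-31830254, plus strand), encode nearly the same protein. HSPA1A had scaled counts of 1623, 1439 and 1407 in oeATOH8 cells, against 6318, 6496 and 6177 in oeCTRL cells. HSPA1B had 1679, 1540 and 1521 in oeATOH8 cells, against 5852, 5943 and 5759 in oeCTRL cells. In both genes the oeATOH8 libraries were the low ones and the groups did not overlap. The log2 fold changes were -2.09 for HSPA1A (SE 0.0734, edgeR adjusted p = 3.84e-08) and -1.89 for HSPA1B (SE 0.0672, edgeR adjusted p = 4.16e-08). The split of reads between them is uncertain, since 72.6% of the windows of 50 bases in the HSPA1A transcript occur in HSPA1B as well, and 71.4% the other way round.

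HSPA2, an HSP70 gene best known from testis, where it is needed for meiosis in mice, is on chromosome 14 (64535905-64543237, plus strand) and was the least abundant of the 7. Its scaled counts were 249.6, 254.2 and 230.6 in oeATOH8 cells, against 1197, 962.6 and 1174 in oeCTRL cells. The oeATOH8 libraries were the low ones, and the oeCTRL libraries were more widely spread relative to their mean (coefficient of variation 11.6%) than for the other HSP70 genes (1.57% to 5.51%). The means were 244.8 ± 12.5 and 1111 ± 129 (SD, n = 3 each), with a log2 fold change of -2.18 (SE 0.111, edgeR adjusted p = 4.72e-07).

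HSP90AA1, the stress-inducible HSP90 of the cytosol, is on chromosome 14 (102080742-102139749, minus strand). Its scaled counts were 40865, 43074 and 41559.6 in oeATOH8 cells, against 93664, 98949.6 and 105339 in oeCTRL cells. The highest oeATOH8 library was well under the lowest oeCTRL library. The means were 41833 ± 1129.5 and 99318 ± 5846 (SD, n = 3 each), with a log2 fold change of -1.25 (SE 0.0389, edgeR adjusted p = 1.50e-08). Its p-value ranked 21 of 1424, and its decrease 559 of 835 by size. Of its exon bases, 3.75% overlap WDR20 on the opposite strand, and whether counting used strand is not given in the sources used here. Of the windows of 50 bases in its transcript, 21.4% occur in 6 other genes as well. For HSPA8 the share is 15.4%, with 11 other genes. With windows of 100 bases the shares are 4.63% for HSP90AA1 and 0% for HSPA8.

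DNAJA1, a farnesylated J-domain partner of HSPA8 on chromosome 9 (33025273-33039907, plus strand), had scaled counts of 3726, 3507 and 3201 in oeATOH8 cells, against 7959.6, 8227 and 8858 in oeCTRL cells. DNAJB4, a J-domain protein of the DNAJB1 type on chromosome 1 (77979175-78017964, plus strand), had 1727, 1851 and 1881 in oeATOH8 cells, against 4023, 4094 and 4500.2 in oeCTRL cells. Both genes had their 3 low values in oeATOH8 cells, without overlap. The log2 fold changes were -1.26 for DNAJA1 (SE 0.0704, edgeR adjusted p = 9.40e-07) and -1.21 for DNAJB4 (SE 0.0727, edgeR adjusted p = 1.80e-06). Leaving out each library in turn kept all 7 calls, with adjusted p-values no higher than 0.000109, that of DNAJB4.

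**Figure D2:**
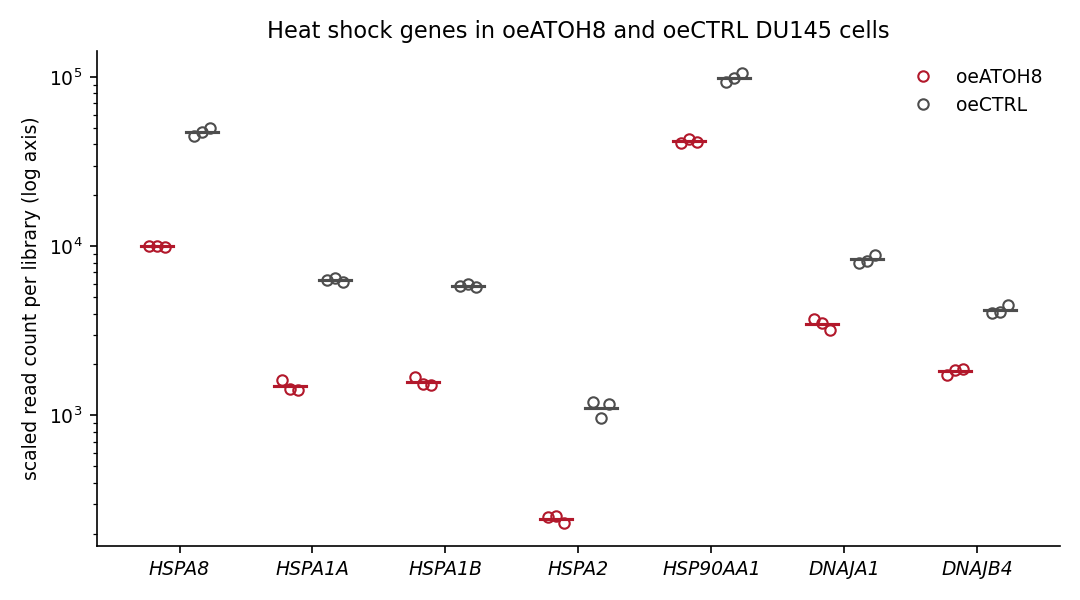
Scaled read counts (log axis) of the 7 heat shock genes in 3 oeATOH8 and 3 oeCTRL libraries; circles are libraries and bars are means. For each gene the 3 oeATOH8 circles sit under the 3 oeCTRL circles, with HSPA8 at 9934 to 9988 against 44551 to 49744.

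Per kilobase of exon, HSP90AA1 and HSPA8 were the most abundant members in both groups. The length counts every annotated exon base of a gene once, so it can exceed that of a transcript. It was 4849 bases for HSPA8, whose longest coding transcript has 2463, and 2483 for HSPA1A, where both are equal. The order of genes at close levels can depend on this length. In oeATOH8 cells HSP90AA1 averaged 7971 ± 215 scaled reads per kilobase (SD, n = 3) and ranked 15 of the 1152 genes with an annotated length, and HSPA8 averaged 2055 ± 5.78 and ranked 72. DNAJA1 averaged 1274 ± 96.5, HSPA1B 627 ± 34.3, HSPA1A 599.98 ± 46.9, DNAJB4 481 ± 21.6 and HSPA2 42.4 ± 2.17 scaled reads per kilobase in these cells. In oeCTRL cells HSP90AA1 ranked 1 at 18925 ± 1114 scaled reads per kilobase (SD, n = 3), and HSPA8 ranked 3 at 9721 ± 536. DNAJA1 averaged 3058 ± 169, HSPA1A 2549.5 ± 64.4, HSPA1B 2321 ± 36.4, DNAJB4 1112 ± 68.0 and HSPA2 192 ± 22.4 scaled reads per kilobase in oeCTRL cells. By exon length HSPA1A and HSPA1B were within their SDs of each other in oeATOH8 cells, and the neighbours otherwise lay further apart than their SDs. The 7 genes together held 2.77%, 2.89% and 2.80% of the reads over listed genes in oeATOH8 libraries, against 10.5%, 11.0% and 11.6% in oeCTRL libraries. The total over listed genes was itself larger in oeATOH8 libraries, so these shares differ by more than the scaled counts do. Summed over the 7 genes, scaled counts were 59844, 61652.5 and 59734 in oeATOH8 libraries, against 163565, 171784 and 181551 in oeCTRL libraries.

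**Figure D3:**
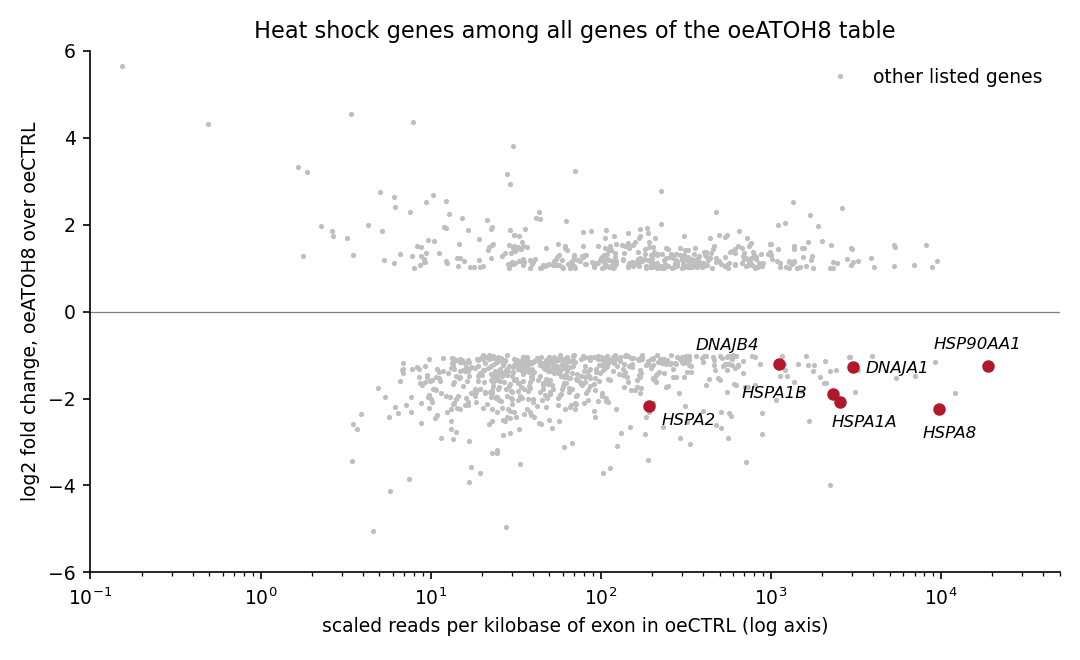
Log2 fold change of oeATOH8 over oeCTRL against scaled reads per kilobase of exon in oeCTRL cells (log axis), for 1150 listed genes with a level above 0; red points are the heat shock genes, and 3 other genes lie outside the vertical axis. The empty band around 0 is the selection made before deposit, and 6 of the 7 red points lie at or above the 1112 reads per kilobase of DNAJB4, all 7 among the lower genes.

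The ratio of a pair of genes within a library does not depend on how the libraries are scaled. HSP90AA1 had 4.10, 4.31 and 4.18 reads per read of HSPA8 in oeATOH8 libraries, against 2.10, 2.10 and 2.12 in oeCTRL libraries. The ratio was thus 1.99 times as high in oeATOH8 cells, and the groups lay far apart relative to their SDs of 0.109 and 0.00944. DNAJA1 had 0.0912, 0.0814 and 0.0770 reads per read of HSP90AA1 in oeATOH8 libraries, against 0.0850, 0.0831 and 0.0841 in oeCTRL libraries, which overlap. DNAJB4 had 0.0423, 0.0430 and 0.0453 reads per read of HSP90AA1 in oeATOH8 libraries, against 0.0430, 0.0414 and 0.0427 in oeCTRL libraries, which overlap as well.

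Of the 21 pairs, 14 had ratios that did not overlap between groups, against 31.9% of all pairs of genes both listed as lower. That share covers lower genes of any level with reads in every library, and it was not matched for depth. HSP90AA1 and HSPA8 ranked 1 and 2 of 1424 listed genes by reads in oeCTRL cells, and ratios of deeply read genes vary less. The 21 pairs reuse 7 genes and are not independent of each other. All 12 pairs of an HSP70 gene with HSP90AA1, DNAJA1 or DNAJB4 were among the 14, always with the HSP70 gene relatively lower in oeATOH8 cells. None of the 3 pairs among HSP90AA1, DNAJA1 and DNAJB4 was apart, and 2 of the 6 pairs within HSP70 were. The 2 within HSP70 were HSPA1A over HSPA1B, at 0.966, 0.935 and 0.925 in oeATOH8 libraries against 1.08, 1.09 and 1.07 in oeCTRL libraries, and HSPA1B over HSPA8, at 0.168, 0.154 and 0.153 against 0.131, 0.126 and 0.116. The split of reads between HSPA1A and HSPA1B is uncertain, and ratios with either gene depend on it. An exact two-sided permutation test of 3 libraries against 3 cannot go below 0.1, the value each of the 14 ratios without overlap had (0.15 adjusted over the 21 pairs), so no ratio could pass the threshold.

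The size of the change, unlike these ratios, depended on the scaling. HSPA8 had a log2 fold change of -2.24 as scaled here, -1.94 with TMM, -1.33 with relative log expression and -2.70 with totals over the listed genes. HSP90AA1 had -1.25 as scaled here, -0.94 with TMM, -0.34 with relative log expression (edgeR adjusted p = 0.00121) and -1.70 with totals. The median of all listed genes moved with it, at -1.10, -0.80, -0.19 and -1.56 in the same order. With relative log expression DNAJB4 lost its call, at -0.30 (edgeR adjusted p = 0.233), and DNAJA1 kept it at -0.35 (edgeR adjusted p = 0.0481), while the 4 HSP70 genes stayed between -1.33 and -0.98. No member changed direction under any of these scalings.

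**Figure D4:**
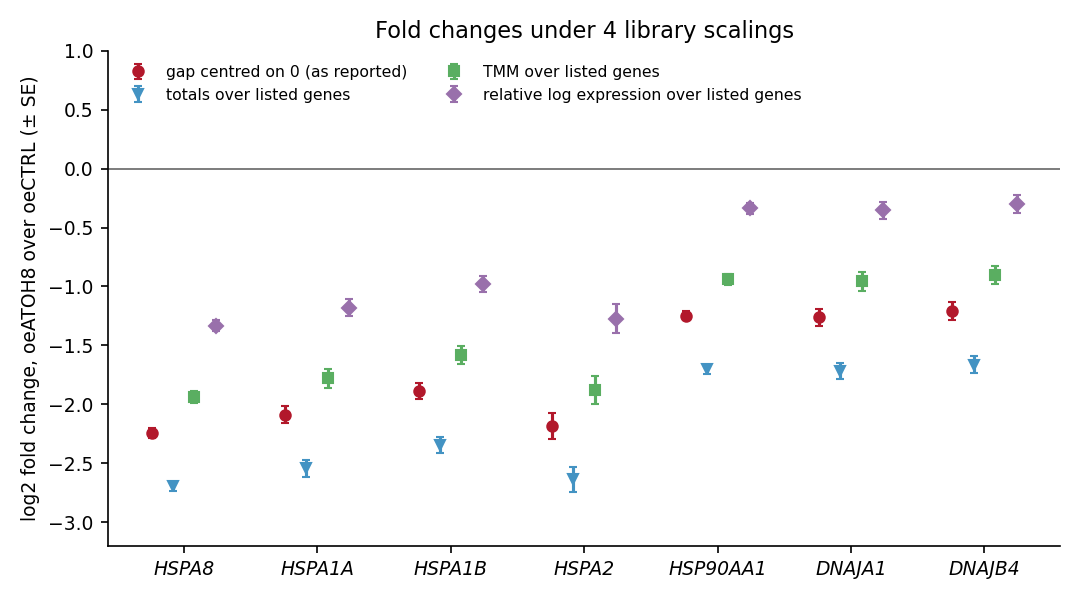
Log2 fold change of oeATOH8 over oeCTRL (points, with bars for the SE) of the 7 heat shock genes under 4 scalings of the libraries. A change of scaling shifts every gene by nearly the same amount, so the points move together and keep their order by construction. The 4 HSP70 genes are lower than HSP90AA1, DNAJA1 and DNAJB4, and no point reaches 0.

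By the root mean square difference of centred log2 values over the 6 libraries, the genes most like HSPA8 were OLFML2A (0.0821), CDH3 (0.0930), HSPA1A (0.114), PLIN4 (0.114) and DZIP1 (0.123). Those most like HSP90AA1 were DNAJB4 (0.0392), MYORG (0.0393), PCYOX1 (0.0485), KLHL28 (0.0516) and CD24 (0.0524). These differences are on the log2 scale, and 1044 listed genes whose mean reached 50 were compared. The genes named had log2 fold changes of -2.28 to -2.09 for HSPA8 and -1.34 to -1.20 for HSP90AA1. The likeness is thus mostly that of the fold change between the groups, and shared regulation was not tested.

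Markers of this and other cell types were read in the same libraries. The 2 listed epithelial markers fell in oeATOH8 cells together with the heat shock genes. The adhesion protein CDH1 had scaled counts of 268, 233 and 218 in oeATOH8 cells, against 1811, 1927 and 1691 in oeCTRL cells (log2 fold change -2.92, SE 0.0986, edgeR adjusted p = 2.99e-08). The keratin KRT8 had 5704, 6462 and 5777 in oeATOH8 cells, against 15298, 15247 and 15765 in oeCTRL cells (log2 fold change -1.37, SE 0.0559, edgeR adjusted p = 1.15e-07). Of 13 erythroid markers, HBB, HBA1 and HBA2 were listed, with 56662, 3141 and 13206 summed reads in oeATOH8 libraries, against 13, 7 and 4 in oeCTRL libraries, where HBB was at 0 throughout. Of 5 fibroblast and endothelial markers COL1A2 was listed, with 92, 72 and 114 reads in oeATOH8 libraries against 0, 0 and 5 in oeCTRL libraries, and none of 5 leukocyte markers was. HSPA8 had 9974 scaled reads in the oeATOH8 library with 56662 globin reads, 9988 in that with 3141 and 9934 in that with 13206. The part of these cell type markers in the fall of the heat shock genes was not tested.

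Genes that work with the family were mostly not listed beside it. None of 20 HSF1 targets outside the family, 9 HSF factors and regulators, 27 HSP90 cochaperones, 10 other HSP70 cochaperones, 21 endoplasmic reticulum folding genes, 12 mitochondrial chaperones and proteases or 11 BAG3 partners and autophagy genes was in the ATOH8 table. Of 33 DNAJC genes and relatives, DNAJC30, a mitochondrial protein, rose 2.14-fold (log2 fold change 1.10, SE 0.110, edgeR adjusted p = 0.000115), and DNAJC22 fell with a log2 fold change of -2.03 (SE 0.301, edgeR adjusted p = 0.00313). PFDN2, a subunit of the prefoldin complex that hands actin and tubulin to the chaperonin, rose 2.35-fold (log2 fold change 1.23, SE 0.0607, edgeR adjusted p = 3.80e-07) and was the 1 gene listed of 15 chaperonin and prefoldin genes.

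In a list of 11 genes of the oxidative stress and metal response, 7 were listed, 6 with higher and 1 with lower values in oeATOH8 cells. Of these 5 passed the test as higher and 1 as lower, where 82.0% of all listed genes passed. The metallothioneins MT1X, MT2A and MT1E, which bind zinc and copper, rose 9.49-fold, 5.24-fold and 4.65-fold in oeATOH8 cells. HMOX1, a haem oxygenase known to be induced by NRF2 and also by heat, which the list of HSF1 targets does not hold, fell with a log2 fold change of -1.21 (SE 0.0664, edgeR adjusted p = 8.55e-07).

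In the RSL3 table the family was represented by 3 genes: HSPA2 had lower values with RSL3, and the cochaperones DNAJA3 and BAG1 had higher values. None of the 3 passed limma's test when every annotated gene was counted as a test, and neither did any of the 1732 genes fitted (0.0%); at an unadjusted p under 0.05 all 3 passed, as did 89.7% of genes. Adjusted over the listed genes alone all 3 passed, against 82.0% of listed genes, so neither count sets the members apart. On the same bound edgeR called none of the 3 and none of the listed genes, and DESeq2 called none of the 3 and 193 listed genes. All 3 genes and 1732 of the 1810 listed genes passed the filter on low values. The median log2 fold change over these 1732, both directions counted, was 0.51. Over the 929 with higher values it was 0.76, and DNAJA3 and BAG1 lay under that. With TMM over the listed genes the median of the 1732 was 0.18. TMM takes the genes used as unchanged on balance, whereas the listed genes had been selected for a difference.

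HSPA2 had normalised counts of 742.8, 983 and 917 with RSL3, against 1463, 1497 and 1609 with DMSO. The 3 RSL3 libraries were all lower than the 3 DMSO libraries. That held for 685 listed genes (37.8% of all, both directions counted), where 803 genes past the filter had lower values. The means were 880.9 ± 124 and 1523 ± 76.1 (SD, n = 3 each), a 1.73-fold lower value with a log2 fold change of -0.80 (SE 0.177, limma adjusted p = 0.669, and 0.0194 over the listed genes alone). With TMM the log2 fold change was -1.10. Within replicate numbers, RSL3 over DMSO was 0.508, 0.657 and 0.570. HSPA2 was the 1 family gene listed in both tables, and it was lower in oeATOH8 than in oeCTRL cells by 4.54-fold. The tables were normalised separately, so its levels are not compared across them.

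DNAJA3, the J-domain protein of mitochondria that works with the mitochondrial HSP70, is on chromosome 16 (4425868-4456775, plus strand). Its normalised counts were 4641, 3546 and 3604 with RSL3, against 3207, 2554 and 2514 with DMSO. The groups did not overlap, and replicate 1 was the highest library in both groups. In the higher direction 878 listed genes did not overlap (48.5% of all, both directions counted), where 929 genes past the filter had higher values. The means were 3930.1 ± 616 and 2758 ± 389 (SD, n = 3 each), 1.42-fold higher with RSL3, with a log2 fold change of 0.51 (SE 0.194, limma adjusted p = 1, and 0.0456 over the listed genes alone). With TMM the log2 fold change was 0.18, and the increase ranked 867 by size of the 929 genes with higher values. Within replicate numbers the ratio was 1.45, 1.39 and 1.43.

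BAG1, a nucleotide exchange factor of HSP70 that carries a ubiquitin-like domain, is on chromosome 9 (33252471-33264708, minus strand). Its normalised counts were 4669.7, 2905 and 3087 with RSL3, against 2917, 1965 and 1983 with DMSO. The groups overlapped, since RSL3 replicate 2 was under DMSO replicate 1. The means were 3554 ± 971 and 2288 ± 545 (SD, n = 3 each), 1.55-fold higher with RSL3, with a log2 fold change of 0.63 (SE 0.255, limma adjusted p = 1, and 0.0494 over the listed genes alone). With TMM the log2 fold change was 0.30, and the increase ranked 706 of 929 by size. Within replicate numbers the ratio was 1.60, 1.48 and 1.56, narrower than the spread of either group.

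**Figure D5:**
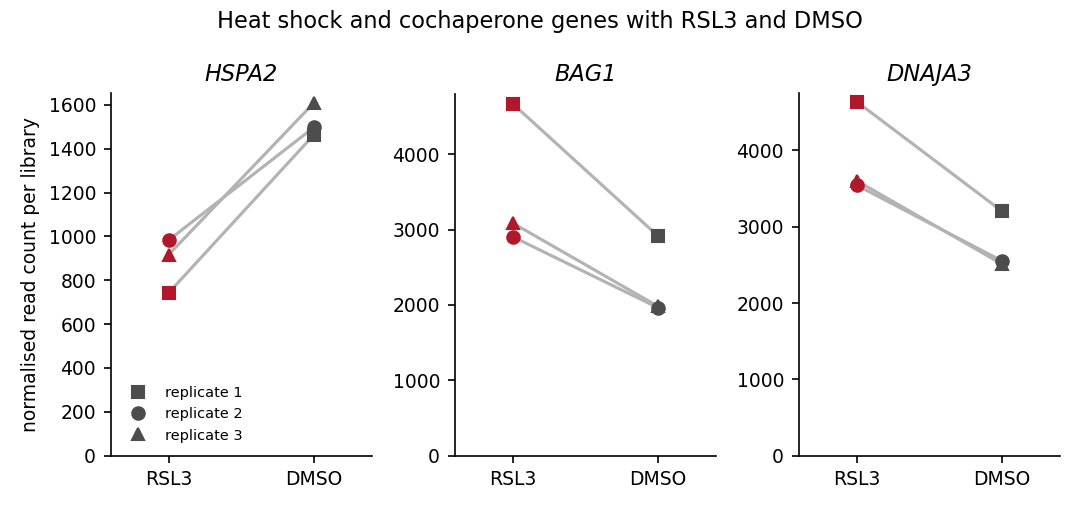
Normalised read counts of HSPA2, BAG1 and DNAJA3 per library with RSL3 and DMSO, each panel from 0; grey lines join libraries with the same replicate number. Replicate 1 (squares) stands apart from replicates 2 and 3 for BAG1 and DNAJA3, and for HSPA2 with RSL3 but not with DMSO. Within each replicate number HSPA2 is lower and BAG1 and DNAJA3 are higher with RSL3.

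Replicate 1 stood apart over all listed genes too. Between replicates 2 and 3, chi-square divided by its degrees of freedom was 1.81 with RSL3 and 1.65 with DMSO (about 1 is what counting error gives), against 60.7 to 106 for pairs that include replicate 1. With the replicate number as a block, limma called none of the 3 genes (adjusted p = 0.107 for HSPA2, 0.118 for DNAJA3 and 0.0973 for BAG1) and 2 listed genes (0.115%), whereas DESeq2 with the block called all 3 and 1104 listed genes. Without replicate 1 in both groups all 3 passed limma's test, as did 1500 listed genes, with log2 fold changes of -0.71 for HSPA2, 0.50 for DNAJA3 and 0.60 for BAG1 (limma adjusted p = 1.59e-06, 2.32e-07 and 2.31e-07). That fit has 2 libraries a group that are nearly alike, so its p-values rest on a spread close to counting error.

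Per kilobase of exon, DNAJA3, BAG1 and HSPA2 ranked 316, 346 and 599 with RSL3 and 319, 370 and 428 with DMSO among the 1657 genes with an annotated length. DNAJA3 averaged 556 ± 87.1 normalised reads per kilobase with RSL3 and 390.1 ± 55.1 with DMSO, and BAG1 averaged 502 ± 137 with RSL3 and 324 ± 77.0 with DMSO, within their SDs of each other in both groups (n = 3 each). HSPA2 averaged 152 ± 21.5 with RSL3 and 264 ± 13.2 with DMSO. HSPA2 lay under BAG1 by more than the SDs with RSL3, and within the SD of BAG1 with DMSO. These comparisons rest on exon lengths of 7071, 7073 and 5777 bases for DNAJA3, BAG1 and HSPA2. Their longest coding transcripts have 2763, 3786 and 5400 bases, so the order can depend on the length used. DNAJA3 had 6.25, 3.61 and 3.93 reads per read of HSPA2 with RSL3, against 2.19, 1.71 and 1.56 with DMSO, without overlap, as held for 57.6% of pairs of listed genes (exact two-sided permutation p = 0.1, the smallest 3 against 3 can give).

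Related genes in the RSL3 table gave no call on the bound either. Of 20 HSF1 targets outside the family 3 were listed, all with higher values with RSL3: the autophagy receptor SQSTM1 at 2.51-fold, the collagen chaperone SERPINH1 at 2.06-fold and the ubiquitin gene UBB at 1.61-fold. Of the HSF regulators, IER5L was 1.59-fold higher and IER5 was 0.735 times its DMSO level. Of the other HSP70 cochaperones, SGTA was 1.52-fold and GRPEL1, the nucleotide exchange factor of mitochondrial HSP70, 1.30-fold higher, and SGTB was 0.485 times its DMSO level. DNAJC4 at 1.67-fold, DNAJC11 at 1.37-fold and TIMM44, which tethers mitochondrial HSP70 to the import channel, at 1.62-fold had higher values, and the endoplasmic reticulum oxidases ERO1A and ERO1B had lower values, at 0.355 and 0.257 times DMSO. No HSP90 cochaperone of 27 and no chaperonin or prefoldin gene of 15 was listed. Of the oxidative stress list, HMOX1 was 4.76-fold and SRXN1 1.64-fold higher with RSL3. The epithelial markers CDH1 and EPCAM had lower values with RSL3, at 0.230 and 0.332 times DMSO. Of 5 leukocyte markers CD68 was listed, 2.27-fold higher with RSL3, with 4290.3, 1535 and 1498 normalised counts against 1607, 829 and 787 with DMSO. The part of these markers in the values of HSPA2, DNAJA3 and BAG1 was not tested.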

How the data were processed

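Total RNA of DU145 cells (TRIzol extraction) was made into libraries and sequenced by a company, per the labels' protocols. The submitters' processing notes name fastp, HISAT2, StringTie, DESeq2 and the build hg38 (GRCh38), and strandedness and versions are not given in the sources used here. The ATOH8 table holds raw read counts as deposited by the authors, with columns NC and OE read as oeCTRL and oeATOH8. The RSL3 table holds a signal per gene deposited by the authors; all its values were whole multiples of a step per library (tolerance 0.001), so they are read counts divided by a size factor. The test planned for normalised values, limma on log2(value + 1), was therefore used. Because of the added 1, its fold changes understate low genes.

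RSL3 rows were named by RefSeq span (1065 equal, 705 overlapping by at least 0.5 of the joint span), and 1137 of the 1424 ATOH8 rows had a symbol. The RSL3 values were tested with limma 3.58.1 after edgeR's filterByExpr (minimum count 10, total 15). ATOH8 counts were tested with edgeR 4.0.16 (quasi-likelihood), scaled within groups by the median ratio and between groups by centring the empty gap of fold changes on 0. Both were two-sided, adjusted by Benjamini-Hochberg over 59792 and 75204 tests, every annotated gene and assembled locus included, at 0.05. DESeq2 1.42.0 was an alternative, under R 4.3.3. Fold changes in the text are ratios of group means; log2 fold changes are fitted. Scripts were tested on simulated data.

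RSL3 and DMSO libraries with the same number deviated together (correlations of 0.614, 0.466 and 0.445 over listed genes). Replicates 2 and 3 correlated slightly better across numbers (0.501 and 0.467). The data thus match replicate 1 with replicate 1, and do not pair replicates 2 and 3 by number. The text names every listed member, ATOH8, up to 4 genes per related list with the smallest p, and the 5 genes most like HSPA8 and HSP90AA1. Members, lists and tests were chosen with earlier results of these data known. Motif positions are those of RefSeq's start in the promoter table, which can differ from the end of the gene's span.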

Additional observations from a re-analysis of the deposited data

How the results depend on the processing

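The 7 heat shock genes of the ATOH8 table kept their direction and their call in 97 results under the alternatives; DNAJB4 with relative log expression was the 1 exception, leaving 6 calls. Over all listed genes, 1167 were called (507 higher, 660 lower), 733 with relative log expression (589 and 144), 1072 with TMM (564 and 508), 1203 with totals (393 and 810) and 919 to 1108 with a library left out. Same-numbered oeATOH8 and oeCTRL libraries correlated at 0.0573, 0.0482 and 0.0879, each best with its own number, which is a hint from the data; a replicate block gave 1182 calls and changed no call of a heat shock gene.

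For RSL3, 0 listed genes were called, and 0 to 0 with a library left out, but 1421 adjusted over the listed genes alone, 2 with a pseudocount of 0.5, 1 with a pseudocount of 5, 2 with no filter, 193 with DESeq2, 2 with a replicate block in limma, 2 in edgeR and 1104 in DESeq2, and 1500 without replicate 1 in both groups. Of the 3 members 0 were called, against 3 over the listed genes alone, 3 with DESeq2 and the block and 3 without replicate 1. The last 3 fits (edgeR and DESeq2 with the block, and without replicate 1) were chosen after seeing the data. With TMM the RSL3 fold changes moved to -1.10 for HSPA2, 0.18 for DNAJA3 and 0.30 for BAG1. Those of DNAJA3 and BAG1 then fall within -0.33 to 0.34, the range that the fitted values of the main test left empty. No result reversed, and the cause of these shifts was not tested.

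Each group has 3 libraries, the tables list only genes selected for a difference, and the depth of whole libraries is unknown, so the levels of the 41 family genes in neither table are not known here.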
